A study of Mus musculus with 37 samples.

Results

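The transcripts of 9 genes of the transforming growth factor beta (TGF-beta) pathway were followed in mouse lung: the ligands Tgfb1, Tgfb2 and Tgfb3, the receptors Tgfbr1, Tgfbr2 and Tgfbr3, the signal transducer Smad3, and the targets Ctgf and Thbs1. They were chosen by symbol from a count table of 24421 genes, and all 9 were found and tested. Ctgf is the older symbol of Ccn2. RNA sequencing was done on the lungs of 37 C57BL/6 mice, 1 library per mouse, after radiation or mock irradiation. The 6 groups were mock irradiation (0 Gy, 7 mice), mock irradiation with nicotinamide riboside (NR, 5 mice), silicon ions (7 mice), silicon ions with NR (6 mice), simulated galactic cosmic rays (GCR, 7 mice), and gamma rays of a cesium source (5 mice). The GCR beam combined 5 ions: protons, helium, oxygen, silicon and iron. Silicon ions had 300 MeV per nucleon, and every radiation group received 0.75 Gy. NR, a form of vitamin B3 and a precursor of NAD, was given in drinking water at 12 mM from before irradiation onward. Each group held males and females, 22 males and 15 females in all. The sources used here give neither the age of the mice nor the time from exposure to tissue collection.

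TGF-beta ligands are secreted in a latent form bound to the extracellular matrix and act only once they are released, a step in which the matrix protein thrombospondin-1 and integrins take part. The free ligand brings together a type II and a type I receptor, which phosphorylate SMAD2 and SMAD3, and these carry the signal to the nucleus. In the lung the pathway is known for its part in repair after injury and in fibrosis, including fibrosis that follows irradiation of the chest.

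The libraries held between 9485197 and 66381526 counts (median 28476462), and levels are given as counts per 1000000 counts of the library (CPM). Differences between groups are log2 fold changes from edgeR's quasi-likelihood test with group and sex as terms, and a gene was called at a Benjamini-Hochberg adjusted p under 0.05 over all 16977 genes tested. CPM uses library totals only, whereas the fold changes also use TMM scaling factors. These ran from 0.69 to 1.21 in GCR, 0.80 to 1.19 in mock and 0.91 to 1.15 in silicon. A low factor makes CPM by totals lower than the TMM-scaled level, so CPM ranges and fold changes need not match. Lung markers were present in every library, with surfactant and other alveolar type 2 markers summing to at least 1853 CPM. Other tissue was present in part of the libraries: 13 were muscle-rich (Acta1, skeletal muscle actin, above 1000 CPM), 4 of them in mock, 2 in mock with NR, 5 in silicon, 2 in silicon with NR and 0 in GCR and gamma. The ribosomal RNA precursor Rn45s was above 100000 CPM in 4 libraries, 3 of GCR and 1 of mock. Lymphoid stroma (Ccl19 above 100 CPM) stood out in 3 libraries, 2 of silicon and 1 of mock with NR. Cardiac muscle markers (Nppa above 10000 CPM, here called heart-rich) stood out in 2 gamma libraries. Summed cardiac muscle markers were 69.1 to 10182 CPM in the other 35 libraries, and the source of these transcripts was not tested. In bulk tissue, fewer cells of a type and less RNA per cell cannot be told apart. The labels name 1 mouse for each library, so the p-values measure the spread between mice.

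Compared per length of exon sequence, Ctgf was the most abundant of the 9 transcripts and Tgfb1 the least. The mean over the 37 libraries was 55.7 CPM per kb for Ctgf (SD 39.5). Thbs1 followed at 19.04 (SD 12.3) and Tgfbr2 at 14.8 CPM per kb (SD 4.22). Thbs1 exceeded Tgfbr2 in 20 of 37 libraries, so the order of these neighbours was not settled, whereas Ctgf exceeded Thbs1 in 34. Of the ligands, Tgfb3 came first at 11.4 CPM per kb (SD 3.81), above Tgfb2 at 4.60 (SD 1.58) in 35 of 37 libraries. Tgfb1 at 1.81 CPM per kb (SD 1.24) lay below Tgfb2 in 35 of 37. Between these stood Tgfbr3 at 10.1 (SD 2.11), Smad3 at 7.72 (SD 4.51) and Tgfbr1 at 5.69 CPM per kb (SD 1.123). Smad3 exceeded Tgfbr1 in 22 of 37 libraries, and Tgfb3 exceeded Tgfbr3 in 27. Tgfbr1 varied least, with a 2.55-fold range from the lowest to the highest library, and Ctgf most, with a 21.8-fold range. The lowest raw count of any of the 9 genes in any library was 34, for Tgfb1.

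**Figure D1:**
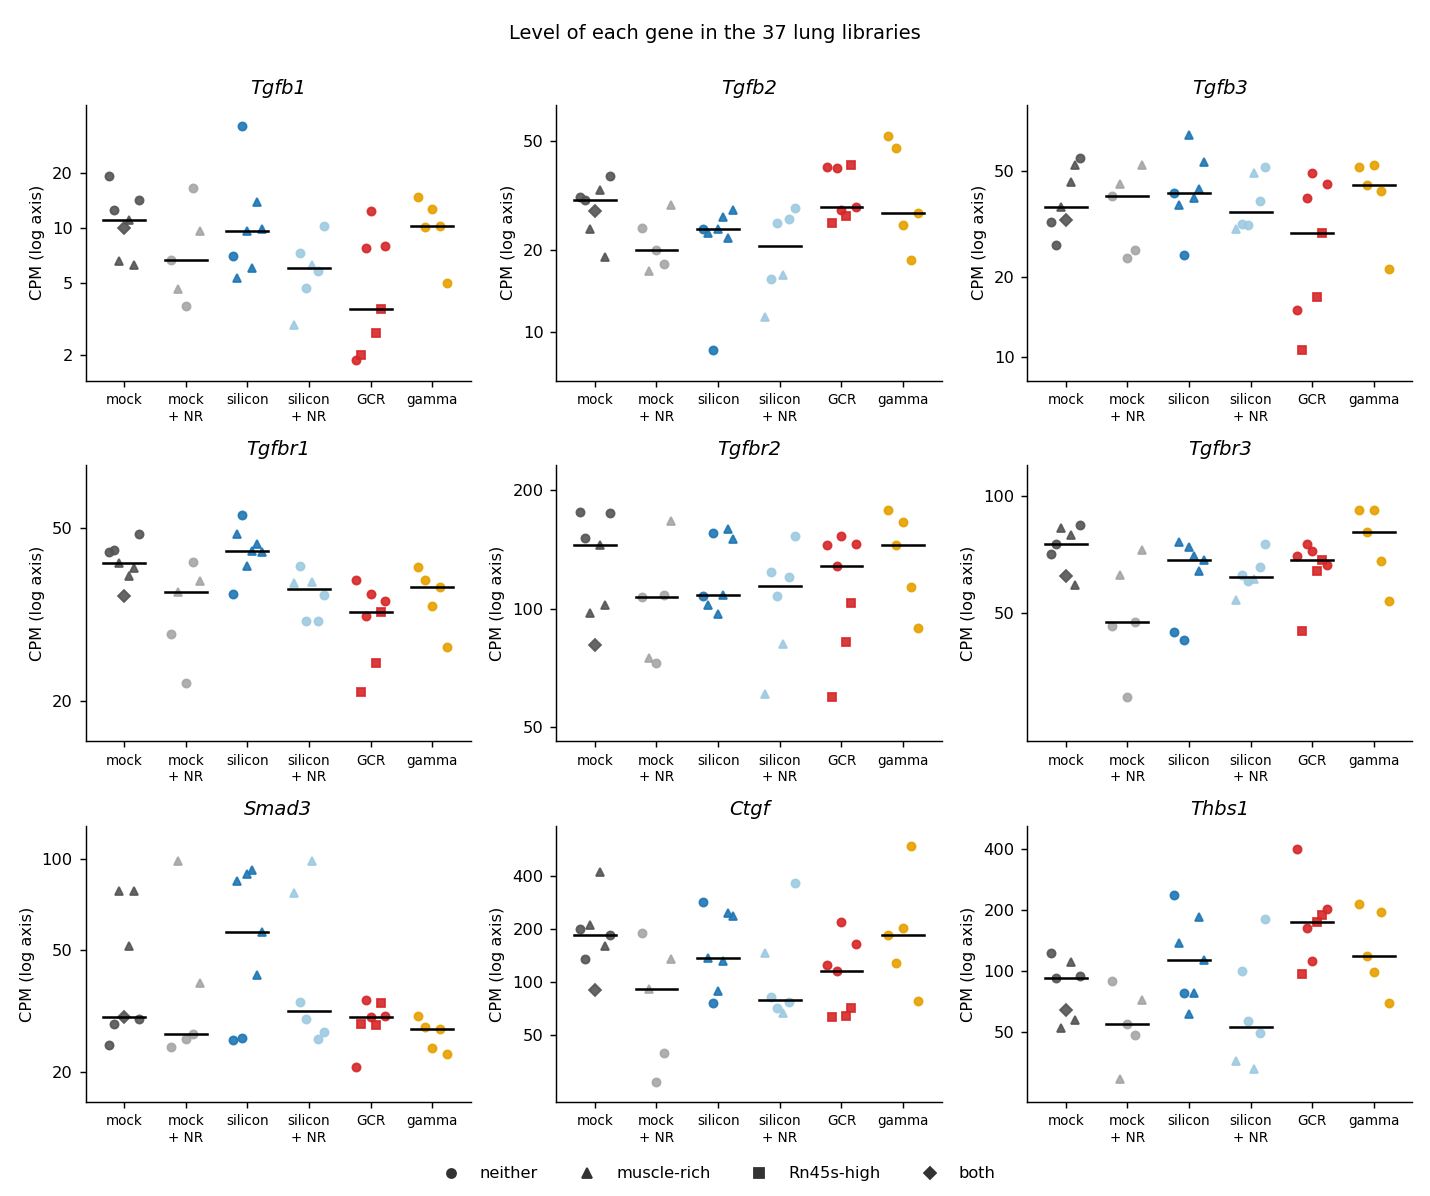
Level of each of the 9 genes in CPM (log axis) in every library of the 6 groups; black lines are group medians and symbols mark muscle-rich and Rn45s-high libraries. Thbs1 in GCR has a median of 174 CPM against 92.3 in mock, Smad3 is high in muscle-rich libraries, and the groups overlap for all 9 genes.

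Among the 3 radiation groups set against mock, 1 of the 9 genes passed the test in 1 comparison: Thbs1 rose in GCR. No gene of the 9 passed in silicon against mock or in gamma against mock. GCR and silicon, which received the same dose, differed in 3 of the 9: Tgfb1 and Tgfbr1 were lower and Tgfb2 was higher in GCR. These counts have to be read against all genes. In GCR against mock, 16.6% of the 16977 genes were called, against 1 of 9 here. In GCR against silicon 35.3% were called, against 3 of 9, a share near the background. In silicon against mock the share was 0%, with 2185 genes at an unadjusted p under 0.05 by edgeR and none of the 9 among them. In gamma against mock it was 0.0295%, and 1 of the 9 (Tgfbr1) had an unadjusted p under 0.05. DESeq2 also called 0 of the 9 in both of these comparisons, but 2 in GCR against mock (Thbs1 and Tgfb1) and 4 in GCR against silicon (the same 3 as edgeR and Thbs1). GCR against mock and GCR against silicon share the GCR libraries, and the 3 comparisons with mock share the mock libraries.

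**Figure D2:**
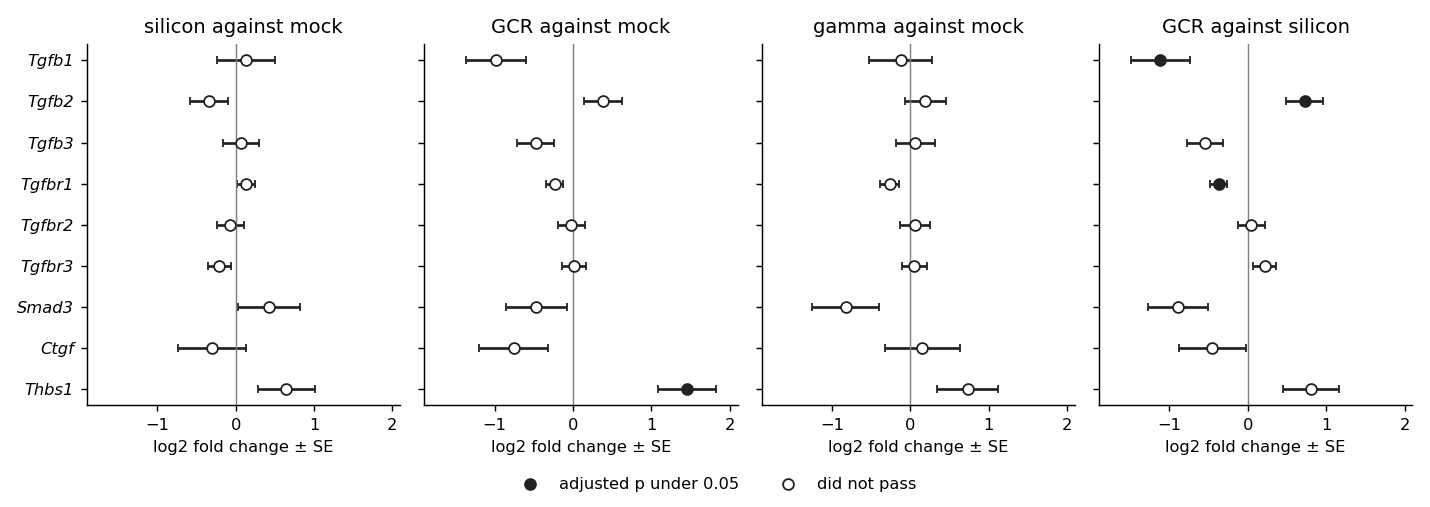
Log2 fold changes with standard errors of the 9 genes in 4 comparisons, filled where the adjusted p is under 0.05. Thbs1 is filled in GCR against mock (1.45), and Tgfb1 (-1.12), Tgfb2 (0.72) and Tgfbr1 (-0.37) in GCR against silicon.

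The 3 genes that differed between GCR and silicon are shown here by the 250 bases before their annotated start (RefSeq, GRCm38.p6, 5′ to 3′ on the gene's strand). Of the 9 genes, 5 had an entry for this window: Tgfb1, Tgfb2, Tgfbr1, Tgfbr2 and Smad3. Capitals mark matches, on either strand, to a GC box (GGGCGG), an EGR site (GCGTGGGCG), a SMAD box (CAGAC) and an E-box (CACGTG). The Tgfb1 window is chr7:25686752-25687001 on the plus strand, the Tgfb2 window chr1:186705990-186706239 on the minus strand and the Tgfbr1 window chr4:47352972-47353221 on the plus strand.
Tgfb1: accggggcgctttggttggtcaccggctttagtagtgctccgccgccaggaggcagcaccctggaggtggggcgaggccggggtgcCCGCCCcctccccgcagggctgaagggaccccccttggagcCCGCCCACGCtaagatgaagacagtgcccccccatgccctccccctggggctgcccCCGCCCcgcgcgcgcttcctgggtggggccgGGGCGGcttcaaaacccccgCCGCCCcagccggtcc
Tgfb2: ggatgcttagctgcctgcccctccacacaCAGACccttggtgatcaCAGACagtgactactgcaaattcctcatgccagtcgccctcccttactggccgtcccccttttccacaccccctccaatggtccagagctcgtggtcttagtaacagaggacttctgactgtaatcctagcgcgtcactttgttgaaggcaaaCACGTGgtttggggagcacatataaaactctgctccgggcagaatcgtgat
Tgfbr1: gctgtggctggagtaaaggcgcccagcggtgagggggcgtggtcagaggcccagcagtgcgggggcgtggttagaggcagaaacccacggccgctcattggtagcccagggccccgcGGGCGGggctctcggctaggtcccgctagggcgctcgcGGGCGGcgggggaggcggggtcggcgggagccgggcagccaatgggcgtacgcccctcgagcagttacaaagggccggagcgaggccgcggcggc
The Tgfb1 window held 5 GC boxes and 1 EGR site that overlaps one of them. The Tgfbr1 window shown held 2 GC boxes and no other match, while a second annotated start of Tgfbr1 (window chr4:47385966-47386215) had 1 SMAD box and no GC box. Tgfb2 held 2 SMAD boxes, 1 E-box and no GC box. Of 32851 windows of the same length, 32.7% held a GC box, 0.536% the EGR site, 42.2% the SMAD box and 6.02% the E-box. An AP-1 site (TGANTCA, in 6.75% of all windows) and a cAMP response element (TGACGTCA, in 1.55%) were not found in these 3 windows. Of the genes not called in this comparison, Smad3 held 2 GC boxes and no other match, and Tgfbr2 held 1 SMAD box and no GC box. These matches describe the letters only, and their relation to the direction of change was not tested.

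Tgfb1 (chr7:25687002-25705077, plus strand, GRCm38), which encodes the ligand known for its part in restraining T cells and in fibrosis, was lower in GCR than in silicon. It ranged from 6.27 to 19.3 CPM in mock (median 11.01), from 5.27 to 36.4 in silicon (median 9.63) and from 1.88 to 12.4 in GCR (median 3.58). The 5 gamma libraries had 4.96, 10.2, 10.2, 12.7 and 14.8 CPM. Of the 7 GCR libraries, 4 lay below every mock and every silicon library, and the other 3 lay within the range of both groups. The log2 fold change between GCR and silicon was -1.12 (SE 0.38, adjusted p = 0.0220, edgeR). Against mock it was -0.98 (SE 0.38, adjusted p = 0.0706, edgeR), which did not pass. It passed with DESeq2 (-0.96, adjusted p = 0.0462) and, by edgeR, without the lymphoid-rich libraries (-1.11, adjusted p = 0.0219). The 4 low GCR libraries were the 3 Rn45s-high ones and GCR mouse 1, in which the fewest genes had a count (16168). The highest of all 37 libraries was the lymphoid-rich silicon mouse 3 at 36.4 CPM. Without the lymphoid-rich libraries the change between GCR and silicon was -0.51 (adjusted p = 0.227, edgeR), and without the Rn45s-high ones -0.77 (adjusted p = 0.240, edgeR). Without the muscle-rich ones it was -1.86 (adjusted p = 0.0484, edgeR), but that fit kept only mice 1 and 3 of silicon, and mouse 3 is this highest library. Voom with sample quality weights gave -0.20 (adjusted p = 0.609). The call was lost without silicon mouse 3 or without GCR mouse 1, 2 or 5, with values from -1.36 to -0.63 as each mouse was left out in turn.

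Tgfb2 (chr1:186622792-186705989, minus strand), the ligand best known from development of the heart and lung, was higher in GCR than in silicon. It ranged from 8.63 to 27.9 CPM in silicon (median 23.8), from 25.1 to 40.8 in GCR (median 28.7) and from 18.8 to 37.04 in mock (median 30.5). The gamma libraries had 18.4, 24.6, 27.2, 46.9 and 52.0 CPM. All 7 GCR libraries lay above the silicon median and 5 above every silicon library, while 3 of the 7 lay above every mock library and 4 within the mock range. The log2 fold change between GCR and silicon was 0.72 (SE 0.24, adjusted p = 0.0201, edgeR) and that between GCR and mock 0.38 (SE 0.24, adjusted p = 0.259, edgeR). Silicon mouse 3, lymphoid-rich, was again apart, here as the lowest library of all. The call was lost without GCR mouse 1 or 6 (0.56 to 0.82 as each mouse was left out), and without the lymphoid-rich libraries the change was 0.50 (adjusted p = 0.0955, edgeR). Without the muscle-rich ones it was 1.33 (adjusted p = 0.0584, edgeR), but that fit kept only mice 1 and 3 of silicon, and mouse 3 is this lowest library. Voom gave 0.43 (adjusted p = 0.0826).

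Tgfb3 (chr12:86056745-86079041, minus strand), the third ligand, did not pass in any of the 10 comparisons made. It ranged from 26.3 to 55.8 CPM in mock (median 36.5), from 24.2 to 68.1 in silicon (median 41.3) and from 10.6 to 49.0 in GCR (median 29.1). Gamma had 21.3, 41.9, 44.2, 51.9 and 52.6 CPM. The 3 lowest GCR libraries lay below every mock and silicon library, and the other 4 lay among them. The change between GCR and silicon was -0.55 (SE 0.23, adjusted p = 0.0591, edgeR), and that between GCR and mock -0.48 (SE 0.23, adjusted p = 0.137, edgeR). Without the lymphoid-rich libraries the former passed (-0.73, adjusted p = 0.0218, edgeR), as it did without any 1 of silicon mouse 3 and GCR mice 3, 4 and 7. With muscle and Rn45s as covariates both turned to values above 0, 0.090 against silicon and 0.034 against mock. Without the muscle-rich and Rn45s-high libraries they were -0.018 and 0.035.

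Tgfbr1 (chr4:47353222-47414931, plus strand), the type I receptor kinase, was the only receptor to pass in any comparison. It ranged from 35.3 to 53.7 CPM in silicon (median 44.4), from 21.1 to 37.95 in GCR (median 32.05) and from 34.9 to 48.7 in mock (median 41.5). Gamma had 26.7, 33.1, 36.7, 38.1 and 40.7 CPM. By CPM of library totals, 6 of 7 GCR libraries lay below every silicon library and 5 below every mock library. The log2 fold change between GCR and silicon was -0.37 (SE 0.11, adjusted p = 0.0119, edgeR), a small difference in a gene with little spread. It was -0.24 (SE 0.11, adjusted p = 0.132, edgeR) between GCR and mock and -0.40 (SE 0.12, adjusted p = 0.0847, edgeR) between gamma and silicon, and neither passed. Voom called the difference between GCR and mock (-0.38, adjusted p = 0.0161), as did edgeR without GCR mouse 1 (adjusted p = 0.0437). The edgeR call between GCR and silicon was lost without GCR mouse 2 or 5 (-0.47 to -0.31). Without the 13 muscle-rich libraries, which leaves 2 silicon mice, the change was -0.19 (adjusted p = 0.588, edgeR).

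Tgfbr2 (chr9:116084293-116175360, minus strand), the type II receptor that binds the ligand first, did not pass in any of the 10 comparisons. Its medians were 145 CPM in mock (80.8 to 176), 108 in silicon (96.9 to 159.7) and 128 in GCR (59.8 to 153). Gamma had 89.1, 114, 145, 166 and 178 CPM. The log2 fold changes were -0.07 (SE 0.18) for silicon, -0.02 (SE 0.17) for GCR and 0.06 (SE 0.19) for gamma, each against mock. Every radiation group overlapped mock over most of its range.

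Tgfbr3 (chr5:107106570-107289629, minus strand), betaglycan, the co-receptor that presents TGF-beta 2 to the type II receptor, also did not pass in any of the reported comparisons. It ranged from 59.1 to 84.3 CPM in mock (median 75.3), from 42.4 to 76.1 in silicon (median 68.5) and from 44.9 to 75.3 in GCR (median 68.5). Gamma had 53.8, 68.0, 80.8, 92.3 and 92.3 CPM. Its level depended on which libraries were compared: the 2 silicon mice that were not muscle-rich were the 2 lowest of their group, at 42.4 and 44.6 CPM. Without the muscle-rich libraries, silicon against mock was -0.83 (adjusted p = 0.0310, edgeR) and GCR against silicon 0.89 (adjusted p = 0.0199, edgeR), where the comparisons of all mice gave -0.21 and 0.22. These 2 mice, silicon mice 1 and 3, also had the lowest endothelial sums of their group (447 and 243 CPM), and mouse 3 was lymphoid-rich. Without the lymphoid-rich libraries silicon against mock was -0.058 (adjusted p = 0.938, edgeR).

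Smad3 (chr9:63646767-63757994, minus strand), the transcription factor that the active type I receptor phosphorylates, was highest in muscle-rich libraries, in each of the 4 groups that had them. It ranged from 24.5 to 78.6 CPM in mock (median 30.3), from 25.4 to 92.1 in silicon (median 57.7) and from 20.7 to 34.4 in GCR (median 30.3). Gamma had 22.9, 23.8, 27.6, 28.0 and 30.4 CPM. In the 13 muscle-rich libraries Smad3 ranged from 30.3 to 98.5 CPM (median 78.1), and in the other 24 from 20.7 to 34.4 (median 27.8). The summed level of 8 skeletal muscle markers was 3946 to 72691 CPM in the former and 21.4 to 937 in the latter. Within the 13, Smad3 and the summed markers were related with r = 0.92 (Spearman's rho 0.92, permutation p = 1e-05 for both, the smallest possible, n = 13), and r was 0.94 without the 2 libraries farthest from the median. Within the other 24 no relation was found (r = -0.26, rho -0.23, permutation p = 0.225 and 0.275, n = 24). Against silicon, Smad3 was -0.89 in GCR (SE 0.39, adjusted p = 0.0696, edgeR) and -1.25 in gamma (SE 0.44, adjusted p = 0.117, edgeR). Voom called the former (-0.95, adjusted p = 0.0167), as did edgeR without the lymphoid-rich libraries (-1.18, adjusted p = 0.0287). Without the muscle-rich libraries these values changed sign, to 0.49 (adjusted p = 0.106, edgeR) and 0.15 (adjusted p = 0.760, edgeR).

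**Figure D3:**
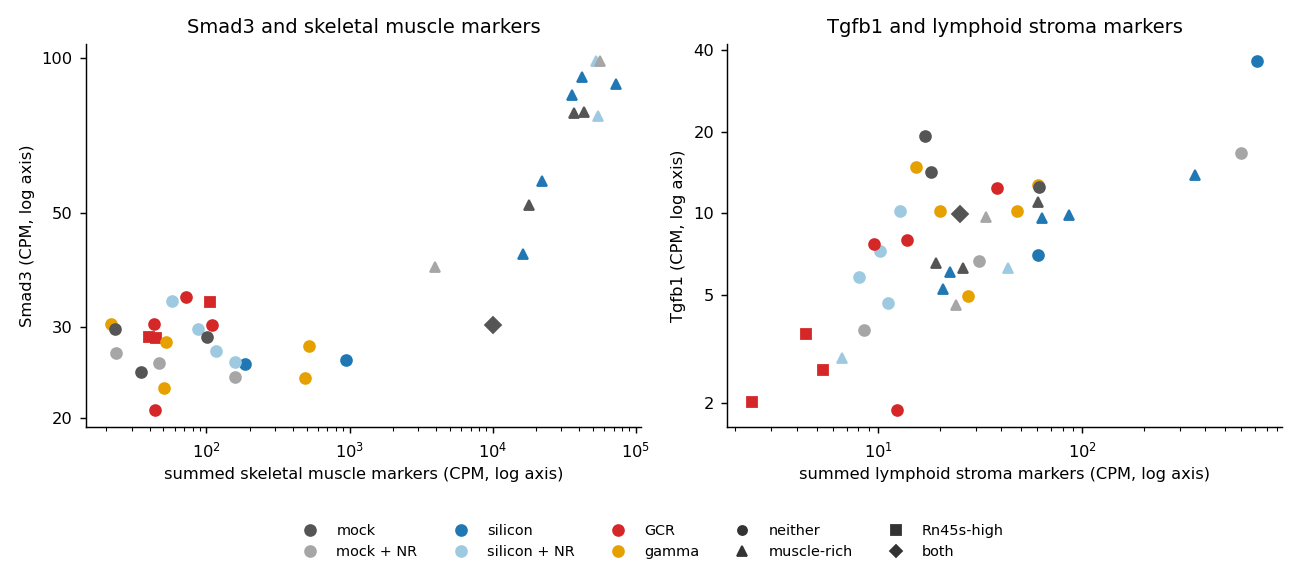
Left, Smad3 against the summed skeletal muscle markers and, right, Tgfb1 against the summed lymphoid stroma markers, in CPM on log axes, 1 point per library. All 24 libraries with muscle markers of at most 937 CPM have Smad3 at or below 34.4 CPM, and the highest Tgfb1 value, 36.4 CPM, is in the library with the highest lymphoid stroma sum.

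Ctgf (chr10:24595442-24598683, plus strand), which encodes connective tissue growth factor, a matrix-associated protein induced by TGF-beta and by YAP and TEAD, did not pass in any comparison. It ranged from 90.4 to 419 CPM in mock (median 186), from 76.3 to 286 in silicon (median 136) and from 63.4 to 219 in GCR (median 115). Gamma had 77.8, 129, 184, 202 and 592 CPM, the last in the library with the most cardiac muscle markers. The 3 lowest GCR libraries, all Rn45s-high, lay below every mock library. The log2 fold change between GCR and mock was -0.76 (SE 0.44, adjusted p = 0.219, edgeR), and its standard error was among the largest of the 9 genes. An unstranded library cannot separate Ctgf from Gm15270 on the other strand, which shares 23.2% of its exon bases.

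Thbs1 (chr2:118111876-118127133, plus strand), which encodes thrombospondin-1, both a target of TGF-beta and an activator of its latent form, rose in GCR. The 7 GCR libraries had 402, 96.9, 164, 112, 174, 189 and 203 CPM, and mock ranged from 52.2 to 123 (median 92.3). Every GCR library lay above the mock median and 5 of 7 above every mock library, and 2 lay within the mock range. The log2 fold change was 1.45 (SE 0.37, adjusted p = 0.0137, edgeR). Silicon ranged from 61.6 to 238 CPM (median 114) and gamma had 69.5, 99.1, 119, 196 and 215. Against mock the change was 0.65 in silicon (SE 0.37, adjusted p = 0.487, edgeR) and 0.73 in gamma (SE 0.39, adjusted p = 0.550, edgeR). The difference between GCR and silicon was 0.80 (SE 0.36, adjusted p = 0.0795, edgeR) and that between gamma and GCR -0.72 (SE 0.40, adjusted p = 0.256, edgeR), and neither passed by edgeR. DESeq2 called the difference between GCR and silicon (0.84, adjusted p = 0.0484), and edgeR called it without silicon mouse 1 or without GCR mouse 4. Without GCR mouse 1, the highest, the change against mock was 1.01 and no longer passed (adjusted p = 0.0556, edgeR). Muscle-rich and Rn45s-high libraries are unequally spread over GCR and mock. The change was 1.24 without the muscle-rich libraries (adjusted p = 0.212, edgeR), 1.55 without the Rn45s-high ones (adjusted p = 0.242, edgeR) and 1.39 without both (adjusted p = 0.755, edgeR). Each of these fits called 0 of all genes. Beside Thbs1, 8 of 14 immediate early genes, which respond fast to growth factors and stress, were called higher in GCR against mock and 0 lower, where 1364 of all 16977 genes were called higher. Values of this list did not all lie in 1 direction: Egr1 changed by 2.0997 (SE 0.38, adjusted p = 0.00403, edgeR), whereas Jun (-0.24), Ier3 (-0.21) and Myc (-1.24) did not pass. The part of these genes in the Thbs1 result was not tested.

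**Figure D4:**
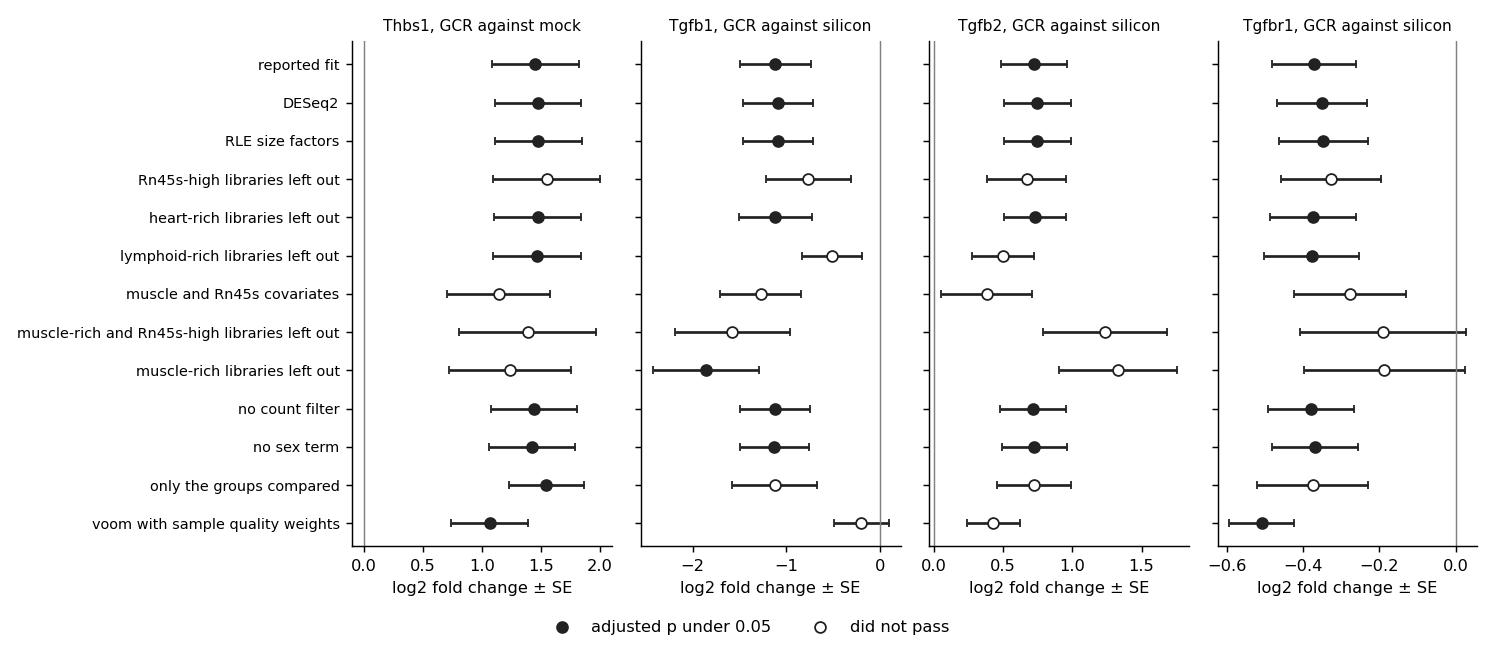
Log2 fold change with its standard error for the 4 called results in the reported fit and 12 alternatives, filled where the adjusted p is under 0.05. Thbs1 in GCR against mock keeps a value between 1.07 and 1.55, and Tgfb1 in GCR against silicon ranges from -1.86 to -0.20.

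NR was examined alone and together with silicon ions, and none of the 9 genes passed in any of the 3 tests. In mock with NR against mock 0% of all genes were called by edgeR, with 2875 at an unadjusted p under 0.05. Tgfbr3 and Tgfbr1 were the 2 of the 9 with an unadjusted p under 0.05, and DESeq2 called 0. Tgfbr3 had 30.3, 46.1, 47.5, 62.6 and 72.5 CPM in mock with NR, 3 of 5 below every mock library, and its log2 fold change was -0.43 (SE 0.16, adjusted p = 0.156, edgeR). Tgfbr1 had 22.1, 28.5, 35.7, 37.8 and 41.9 CPM there, and its change was -0.27 (SE 0.12, adjusted p = 0.251, edgeR). For Ctgf, mock with NR had 27.1, 39.4, 90.7, 135 and 189.5 CPM and the change was -0.97 (SE 0.48, adjusted p = 0.299, edgeR). Of the 9 genes 8 had a change below 0, with a median of -0.33, while 51.5% of all 16977 genes were below 0. Cell type markers differed between these groups too. Endothelial markers summed to 196 to 1225 CPM in mock with NR and to 825 to 3541 in mock, and alveolar type 2 markers to 2335 to 12458 and 8546 to 44320. Fibroblast markers summed to 226 to 475 CPM in mock with NR and to 498 to 1014 in mock, while club cell markers were higher, at 108524 to 326517 against 61050 to 166223. Their part in the values of the 9 genes was not tested.

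In silicon with NR against mock with NR 0% of all genes were called by edgeR (367 at an unadjusted p under 0.05), and 0 of the 9 genes had an unadjusted p under 0.05. The 9 changes lay between -0.42 for Tgfb1 and 0.34 for Ctgf. Thbs1 ranged from 32.8 to 181 CPM in silicon with NR (median 53.0) and had 29.4, 48.3, 55.1, 72.4 and 89.6 CPM in mock with NR. Its change was 0.30 (SE 0.41) with NR and 0.65 (SE 0.37) without. The interaction, which tests whether the effect of silicon differed with NR, was -0.35 (SE 0.54, adjusted p = 1.00, edgeR) for Thbs1. It was 0.46 for Tgfbr3 (SE 0.22, adjusted p = 0.490, edgeR), the only 1 of the 9 with an unadjusted p under 0.05. In this test, too, 0% of all genes were called by edgeR (1689 at an unadjusted p under 0.05), and DESeq2 called 0 of the 9 in both tests.

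In the remaining comparisons none of the 9 genes passed by edgeR. Gamma against silicon called 0.247% of all genes. Of the 9, Tgfbr1 and Smad3 had an unadjusted p under 0.05 there, and DESeq2 called Tgfbr1. Gamma against GCR called 5.7%, with Tgfb1 (0.86, SE 0.41, adjusted p = 0.178, edgeR) and Tgfb3 (0.54, SE 0.25, adjusted p = 0.169, edgeR) at an unadjusted p under 0.05 and 0 called by DESeq2. Females against males called 0.0589%. Tgfb3 had the largest sex difference for its error, 0.33 (SE 0.15, adjusted p = 1.00, edgeR), and DESeq2 again called 0.

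A list of 57 other genes of the pathway, all of them tested, was called in both directions. In GCR against mock 3 of 57 were higher and 7 lower, with a median change of -0.13 against -0.06 over all genes, and 10 of 57 is close to the 16.6% of all genes. By role these were 1 higher and 1 lower of 15 in the latent complex and its activation, 0 of 4 co-receptors and other SMADs, 2 higher and 3 lower of 15 inhibitors, and 3 lower of 23 targets. Itgav, the integrin chain that helps release latent TGF-beta, rose by 0.62 (SE 0.15, adjusted p = 0.0129, edgeR). Its median CPM by library totals was 35.1 in mock and 40.5 in GCR, a smaller difference than the TMM-scaled fold change. Ltbp4, which ties the latent complex to the matrix, was lower, at -0.82 (SE 0.26, adjusted p = 0.0304, edgeR). Of the co-receptors, Cd109 (-1.85, SE 0.69, adjusted p = 0.0586, edgeR) and Eng (-0.88, SE 0.39, adjusted p = 0.106, edgeR) did not pass. Of the inhibitors, Fkbp1a, whose product binds the type I receptor, was lower (-0.71, SE 0.18, adjusted p = 0.0129, edgeR) and Skil, a SMAD corepressor, higher (0.67, SE 0.18, adjusted p = 0.0171, edgeR). Of the targets, the matrix protein genes Thbs2 (-2.11, SE 0.70, adjusted p = 0.0391, edgeR) and Postn (-0.74, SE 0.25, adjusted p = 0.0408, edgeR) were lower. All 10 calls ended without the Rn45s-high libraries, without the muscle-rich ones, and with only GCR and mock in the fit. They also ended without GCR mouse 2 alone, and none of the 10 held through every mouse being left out in turn. Over all genes, 501 to 4087 were called as each mouse was left out.

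In GCR against silicon 11 of the 57 were higher and 7 lower, with a median of 0.05 against -0.08 over all genes, where 35.3% of all genes were called. Of the 15 inhibitors 6 were higher and 3 lower. Smad7, the inhibitory SMAD that TGF-beta itself induces, ranged from 40.01 to 104 CPM in GCR (median 57.3) and from 18.2 to 31.2 in silicon (median 27.3), and the groups did not overlap, as was the case for 2.46% of all genes tested. Its change was 1.398 (SE 0.27, adjusted p = 0.00192, edgeR), but mock reached from 27.3 to 66.1 CPM (median 54.8). Ski and Pmepa1, other inhibitors of the pathway, rose by 0.81 (SE 0.18) and 1.04 (SE 0.22). Of the 23 targets 4 were higher and 3 lower, and Thbs2 changed by -2.97 (SE 0.71, adjusted p = 0.00382, edgeR). Smad7, Ski and Pmepa1 were named after their values were seen. Of the 18 calls 12 held as each mouse was left out, 5 held without the muscle-rich libraries and 0 without the Rn45s-high ones. Over all genes, this comparison gave 4694 to 6811 calls as each mouse was left out.

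**Figure D5:**
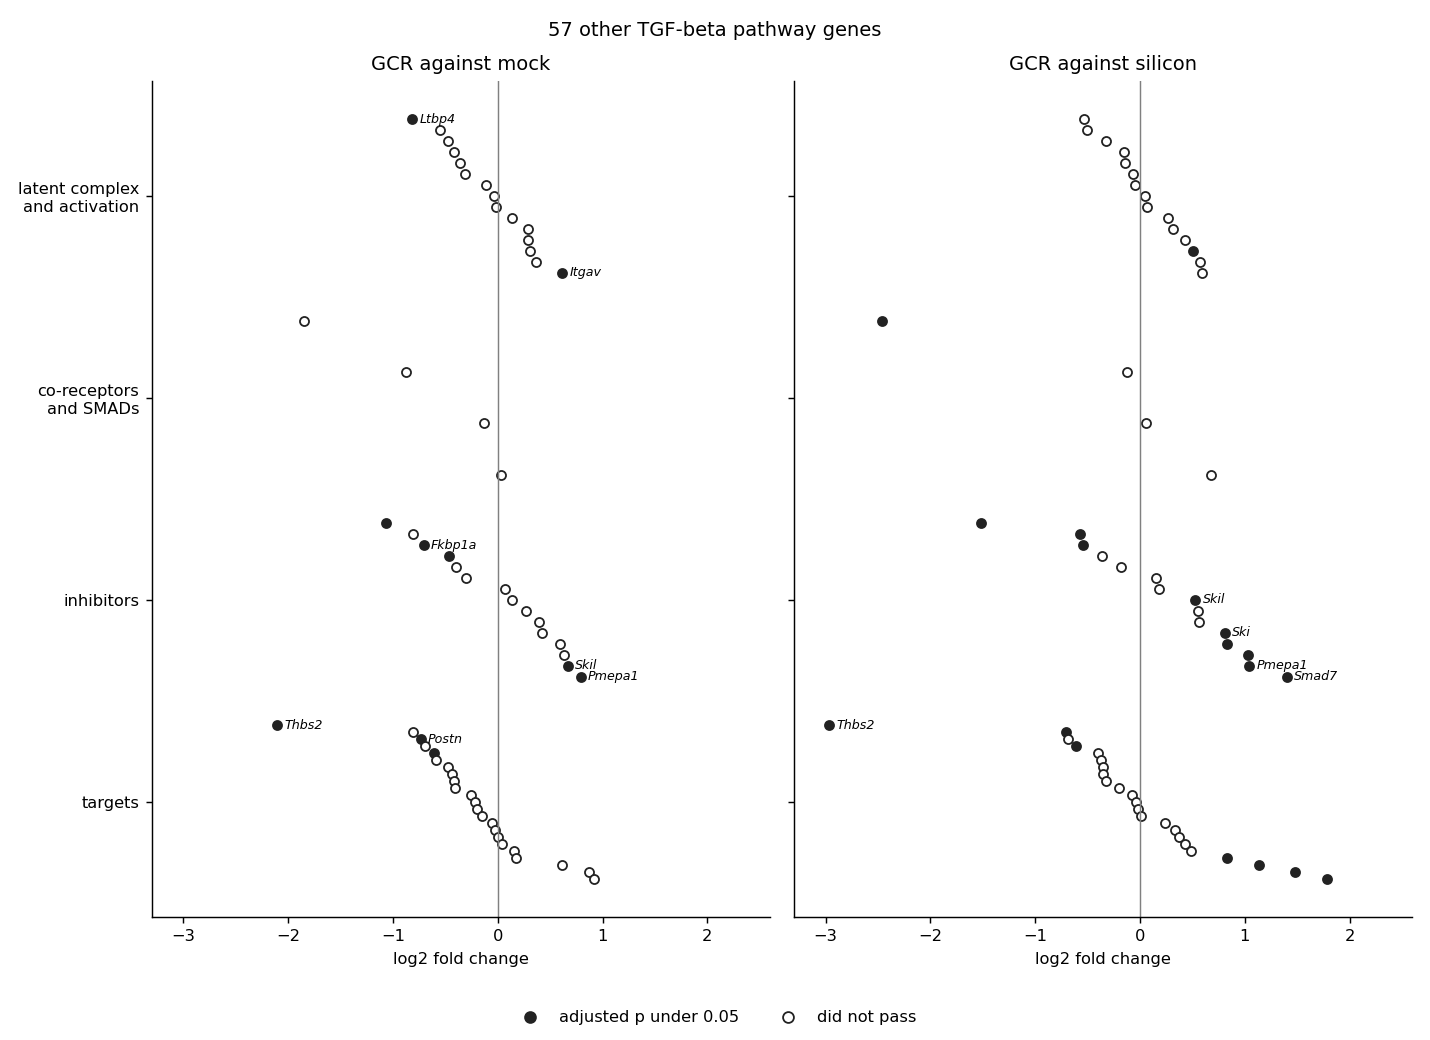
Log2 fold changes of 57 other TGF-beta pathway genes by role in GCR against mock and GCR against silicon, filled where the adjusted p is under 0.05, with some of these named. In GCR against mock 3 are called higher and 7 lower, and in GCR against silicon 11 higher and 7 lower.

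In silicon against mock and in gamma against mock 0 of the 57 were called by edgeR. The smallest p in silicon against mock belonged to Smad6, an inhibitory SMAD (-1.64, SE 0.33, adjusted p = 0.0897, edgeR), and to Eng, endoglin, a co-receptor of blood vessels (-1.56, SE 0.40, adjusted p = 0.0897, edgeR). Smad6 ranged from 11.9 to 54.8 CPM in silicon and from 46.9 to 194 in mock. Endothelial markers summed to 243 to 1102 CPM in silicon and to 825 to 3541 in mock, and their part in these values was not tested. Also named by the rule were Bgn (-0.85), Lrrc32 (-1.07), Ltbp4 (-0.67), Nox4 (-1.28), Postn (-0.74) and Cd109 (0.61), none of which passed. In gamma against mock the lowest p of each role belonged to Cd109 (-1.59) and Smad2 (-0.12), Fkbp1a (-0.45) and Smurf1 (0.24), Furin (0.36) and Mmp14 (0.25), and Postn (-0.65) and Klf10 (-0.52), with adjusted p from 0.385 to 0.733 (edgeR). In gamma against GCR 3 of the 57 were higher and 4 lower, where 5.7% of all genes were called. Dcn (1.54, SE 0.38), Ldlrad4 and Ltbp4 were higher in gamma, and Pmepa1 (-1.03, SE 0.24), Ski and Skil were among those lower. All 7 calls ended without any 1 of GCR mice 1, 2, 5 and 6 or gamma mice 3 and 4. They also ended without the Rn45s-high, the heart-rich or the muscle-rich libraries and with only these groups in the fit. Over all genes, gamma against GCR gave 967 calls, and from 0 to 2618 as each mouse was left out. The loss of the 7 calls is therefore not particular to these genes. In the other 5 comparisons 0 of the 57 were called.

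The 9 genes did not move as a block across the 37 libraries. Of their 36 pairs, 6 were correlated in log2 CPM at an adjusted permutation p under 0.05, 5 positively and 1 negatively. The closest pair was Tgfb2 with Tgfbr3, the ligand and the co-receptor that presents it (r = 0.60, rho = 0.55, permutation p = 0.00012 and 0.00050, adjusted p = 0.00306 and 0.00900, n = 37). Without the 2 libraries farthest from the Tgfb2 median r was 0.42, and without the muscle-rich libraries 0.68. Tgfb2 and Thbs1 followed (r = 0.55, rho = 0.48, adjusted permutation p = 0.00576 and 0.0243), with r = 0.51 without the 2 farthest libraries. Tgfb1 and Tgfbr2 gave r = 0.46 and rho = 0.56 (adjusted permutation p = 0.0297 and 0.00900), and r was 0.70 without the 2 farthest. Tgfbr2 and Thbs1 gave r = 0.53 and rho = 0.46 (adjusted permutation p = 0.00639 and 0.0354), and r was 0.37 without the 2 farthest. Without the muscle-rich libraries neither of these 2 pairs passed, with r = 0.39 for the former (adjusted permutation p = 0.172) and 0.33 for the latter (adjusted permutation p = 0.207). The 2 targets Ctgf and Thbs1 had r = 0.41 and rho = 0.40, with adjusted permutation p = 0.0574 and 0.0580. The correlated pairs include 2 with Smad3, whose pooled r is not given, because muscle content splits that gene into separate clusters. Scaling by library totals instead of TMM factors brought the count of pairs from 6 to 20.

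Several members followed the summed markers of a cell type, among 189 relations computed between the 9 genes and 21 lists. Over the 24 libraries that were not muscle-rich, Tgfb1 was related to lymphoid stroma markers (r = 0.74, rho = 0.75, permutation p = 4.0e-05 and 9.0e-05, adjusted p = 0.00126 and 0.00283), with r = 0.62 without the 2 farthest libraries. Tgfbr2 was related to alveolar macrophage markers (r = 0.72, rho = 0.71, permutation p = 6.0e-05 and 0.00015, adjusted p = 0.00162 and 0.00354; r = 0.63 without the 2 farthest). Tgfbr3 was related to endothelial markers (r = 0.72, rho = 0.63, permutation p = 4.0e-05 and 0.00114, adjusted p = 0.00126 and 0.0120; r = 0.56 without the 2 farthest). Ctgf was related to 8 other YAP and TEAD targets, a list without Ctgf (r = 0.85, rho = 0.86, permutation p = 1e-05 for both, the smallest possible, adjusted p = 0.000630 and 0.000945), with r = 0.75 without the 2 farthest libraries. The 2 heart-rich gamma libraries had the highest sums of this list, 1629 and 1798 CPM. Ankrd1 alone, 1 of the 8 genes, reached 1007 CPM in gamma (median 70.1). A sum of this list can therefore rest largely on 1 gene. Their mean Ctgf was 397 CPM, against 146 in the other 35 libraries. The part of cardiac muscle content in this relation was not tested. Thbs1 and the 14 immediate early genes gave r = 0.59 and rho = 0.63 over all 37 libraries (permutation p = 0.00015 and 2.0e-05, adjusted p = 0.00149 and 0.00054; r = 0.56 without the 2 farthest). In the 24 they gave r = 0.49 and rho = 0.51, which did not pass (permutation p = 0.0164 and 0.0115, adjusted p = 0.0662 and 0.0529). In these libraries the groups are mixed, so the relations also hold differences between groups. The marker lists were not independent of each other. Mock mouse 1 had 601 CPM of alveolar macrophage, 3541 of endothelial and 44320 of alveolar type 2 markers, and GCR mouse 2 had 45.9, 435 and 4567. The relations of Tgfbr2 and Tgfbr3 therefore do not single out macrophages or endothelium.

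The genes most alike each member over the 37 libraries, ranked among the 11909 genes whose mean log2 CPM was 2 or more, were the following. Tgfb1 was closest to Jak3 (r = 0.90), H2-Q5 (0.89) and Evl (0.89), and Tgfb2 to Plb1 (0.87), Spock2 (0.87) and Abca5 (0.86). Tgfb3 was close to Itgb5 (0.84) and Maged2 (0.82). Of the receptors, Tgfbr1 was closest to Wdr44 (0.83), S100a4 (0.78) and S100a10 (0.76), Tgfbr2 to Scarb2 (0.87), Pxdc1 (0.86) and Tlr2 (0.86), and Tgfbr3 to Flrt2 (0.85), Il17rd (0.82) and Frmd6 (0.82). Smad3 was closest to Cyb5r1 (0.96), Cacnb1 (0.96) and Fbxo31 (0.96), values that were 0.61, 0.71 and 0.42 without the muscle-rich libraries. Ctgf was closest to Tspan6 (0.79), Tnfrsf12a (0.76) and Fbxo30 (0.73), and Thbs1 to Phlda1 (0.87), Errfi1 (0.85) and Rhob (0.84). Depth and tissue content differed between these libraries, and such differences can enter the likeness of any pair of genes. Their part was not tested, and no p is given for the likeness of genes picked as the highest.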

How the data were processed

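Lung total RNA was converted to cDNA with the SMART-seq v4 kit and, per the labels' protocols, made into libraries with the Nextera XT kit, so strand was not kept. FastQC 0.11.4, MultiQC 1.12, Trimmomatic 0.36, STAR 2.5.2, HTSeq 0.13.5 and the build mm10 are named in the submitters' processing notes; the sources used here name no settings or annotation. The authors deposited whole-number counts per gene symbol, not normalized. From these, CPM, TMM factors and edgeR 4.0.16 quasi-likelihood tests (R 4.3.3, group and sex, all 37 libraries, edgeR's count filter) were computed. The edgeR code was run on simulated counts, in which all genes had the same dispersion and tissue content did not differ. That run does not cover the differences in tissue content of the real libraries. DESeq2 1.42.0, voom of limma 3.58.1 and the other alternatives are named in the closing section. Coordinates and exon lengths are from GENCODE M21 (GRCm38). Correlations used 100000 permutations and Benjamini-Hochberg adjustment.

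The 9 genes, the 57 pathway genes and the marker lists were chosen with earlier results of these data known. The text names all 9 genes, the 2 smallest p per role among the 57 in each radiation group against mock, and the 3 genes most alike each of the 9, except where an item is not reported here. The relations with marker lists, the fit without both muscle-rich and Rn45s-high libraries, and the alternatives for the 57 genes were chosen after seeing the data. Replicate numbers follow the order of the records and only name a mouse.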

Additional observations from a re-analysis of the deposited data

Results flagged for a closer look

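Of 54 sets (9 genes in 6 groups), 9 held a library whose gap to its nearest neighbour took up more of the group's range than Dixon's 95% critical value allows. Chance gives about 1 in 20 only for normally distributed values. CPM was not log-transformed here and the sets share mice, so the number expected by chance is not known. For Ctgf these were the highest libraries of 3 groups: gamma mouse 4 with 592 CPM (next 202), mock mouse 5 with 419 CPM (next 210.1) and silicon with NR mouse 6 with 364.6 CPM (next 145). For Smad3 they were mock with NR mouse 2 with 98.5 CPM (next 39.2), a muscle-rich library, and GCR mouse 1, the lowest of its group with 20.7 CPM (next 28.5). Silicon mouse 3, a lymphoid-rich library, was apart in both directions, with 36.4 CPM of Tgfb1 (next 13.9) and 8.63 CPM of Tgfb2 (next 22.1). Tgfbr3 was low in GCR mouse 2 with 44.9 CPM (next 64.0), an Rn45s-high library. These CPM are by library totals. GCR mice 1 and 2 had the lowest TMM factors of all 37 libraries, 0.77 and 0.69, and a factor below 1 raises the TMM-scaled level. Whether Smad3 in mouse 1 and Tgfbr3 in mouse 2 stay apart after TMM scaling was not tested. Thbs1 was high in GCR mouse 1 with 402 CPM (next 203), the library on which the Thbs1 call against mock rests.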

How the results depend on the processing

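No paired analysis was possible because replicate numbers follow the order of the records and mark no shared animal, litter or day. The count of the 9 genes called in GCR against mock was 1. It was 2 with DESeq2 and without the lymphoid-rich libraries (Thbs1 and Tgfb1), and 2 with voom and sample quality weights (Thbs1 and Tgfbr1). It was 0 without the muscle-rich, the Rn45s-high or both kinds of libraries and with muscle and Rn45s as covariates, and 1 to 2 as each mouse was left out. In GCR against silicon it was 3. It was 4 with DESeq2 (Thbs1 added), 2 with voom (Tgfbr1 and Smad3), 3 without the lymphoid-rich libraries (Tgfb3, Tgfbr1 and Smad3), 2 without the muscle-rich ones (Tgfb1 and Tgfbr3), 0 with only these groups in the fit, without the Rn45s-high libraries and with covariates, 1 without both kinds, and 1 to 5 as each mouse was left out. In silicon against mock, mock with NR against mock, and the interaction it was 0, and 1 (Tgfbr3) without the muscle-rich libraries and without both kinds; voom also gave 1 in mock with NR against mock. In gamma against silicon it was 0, but 1 with DESeq2, without the muscle-rich libraries and without both kinds, 3 with voom, and 0 to 1 as each mouse was left out. In gamma against GCR it was 0, and 0 to 1 as each mouse was left out (Tgfb3, without gamma mouse 5). The count of correlated pairs was 6, and 10 without the muscle-rich libraries, 10 without the Rn45s-high ones, 11 on residuals after group and sex, 6 with Spearman's rho and 20 with library totals. Over all genes, GCR against mock gave 2811 calls, 3834 with DESeq2, 1516 with voom, 909 with only these groups in the fit, 0 without the muscle-rich or the Rn45s-high libraries, and 501 to 4087 as each mouse was left out. GCR against silicon gave 5999 calls, and 4694 to 6811 as each mouse was left out. Gamma against silicon gave 42 (1 to 378) and gamma against GCR 967 (0 to 2618). The ranges were 0 to 307 in silicon against mock, 0 to 265 in mock with NR against mock and 0 to 151 in the interaction. Counts of the 9 genes have to be read beside these totals.

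Called pathway genes changed sign in 9 cases. With covariates these were Dcn (0.014) and Thbs2 (0.15) in GCR against mock, and Cd109 (0.26), Ppm1a (0.093), Skil (-0.061) and Snai1 (-0.13) in GCR against silicon. Ppm1a also did so without the muscle-rich libraries (0.075) and without both kinds (0.029), and Klf10 without both kinds (0.10). The causes were not tested; leaving libraries out also leaves fewer mice, 2 of silicon without the muscle-rich ones. Of 1467 values of the 9 genes with 1 mouse left out, 1343 kept their direction and their side of the threshold, 12 newly passed, 9 no longer passed and 103 changed sign or moved without being called. At the lowest level, 34 counts of Tgfb1, depth limits the precision.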
